A study of Mus musculus with 2 samples.

Results

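The immunoglobulin variable (V) segments are the genes that supply most of the antigen-contacting part of an antibody. All gene symbols that start with Ighv (heavy chain), Igkv (kappa light chain) or Iglv (lambda light chain) were taken, which gave 241 of the 24014 symbols in the tables of both libraries. They comprised 116 Ighv, 122 Igkv and 3 Iglv segments, and 220 were listed in the HFD library and 204 in the ND library, with 183 in both. Their use was followed in plasma cells (at least 10 Jchain and 3 Mzb1 UMIs) and in B cells (at least 3 Cd79a UMIs and not a plasma cell). The rule used Jchain, the protein that joins IgM and IgA into polymers, Mzb1, a chaperone of antibody assembly, and Cd79a, the signalling partner of the B cell receptor, and it used no V segment.

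Bone marrow of young male mice was profiled with the BD Rhapsody whole-transcriptome assay, in which each captured molecule carries a unique molecular identifier (UMI). In the HFD library the mice had been fed a diet of 60% fat for 16 weeks, and in the ND library they had been fed normal chow for 16 weeks. Both were labelled with strain C57B/6 and genotype Wild type. There was 1 library per diet, and neither the animals behind a library nor a sort are given in the labels, so no test between diets was possible and every interval below is a 95% interval that covers counting error only.

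In each developing B cell, V(D)J recombination joins a heavy V segment to a diversity and a joining segment, and a kappa or lambda V segment to a joining segment. Allelic exclusion then leaves most cells with 1 productive heavy and 1 productive light chain, and kappa is used far more often than lambda in mice. Plasma cells, the antibody-secreting end stage, transcribe the rearranged pair at very high level, while a resting B cell makes far less of it, so the segment that leads a cell's V UMIs points to the germline gene behind its antibody, or to a near-identical relative.

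The germline coding sequences of the segments on which the results turn are printed first. They come from the GENCODE M21 transcripts (GRCm38). The last 300 bases of each are given 5′ to 3′, which leaves out most or all of the leader peptide. Capitals mark the end of the segment from the last in-frame cysteine codon, the part that enters the third complementarity-determining region at the junction. Ighv11-2 and Igkv14-126 formed the most frequent pair, Igkv19-93 and Ighv8-8 led many cells of both libraries, and Iglv1 and Iglv2 are near-identical lambda segments.
Ighv11-2: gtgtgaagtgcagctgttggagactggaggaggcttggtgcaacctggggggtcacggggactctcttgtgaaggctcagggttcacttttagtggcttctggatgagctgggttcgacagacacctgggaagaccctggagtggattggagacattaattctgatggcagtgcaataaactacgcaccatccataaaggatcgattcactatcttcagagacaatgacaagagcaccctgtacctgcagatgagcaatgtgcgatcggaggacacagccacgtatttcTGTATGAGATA
Igkv14-126: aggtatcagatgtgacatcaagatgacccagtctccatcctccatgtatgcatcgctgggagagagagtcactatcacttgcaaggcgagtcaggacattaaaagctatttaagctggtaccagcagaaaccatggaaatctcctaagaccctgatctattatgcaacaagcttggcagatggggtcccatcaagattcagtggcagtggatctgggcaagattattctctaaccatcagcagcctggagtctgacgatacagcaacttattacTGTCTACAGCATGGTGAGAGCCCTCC
Igkv19-93: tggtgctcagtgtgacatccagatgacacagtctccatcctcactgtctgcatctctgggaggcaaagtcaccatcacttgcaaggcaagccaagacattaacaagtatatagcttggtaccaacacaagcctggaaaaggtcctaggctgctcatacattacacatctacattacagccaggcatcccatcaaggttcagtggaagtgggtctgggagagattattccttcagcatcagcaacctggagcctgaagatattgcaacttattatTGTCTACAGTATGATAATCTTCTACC
Ighv8-8: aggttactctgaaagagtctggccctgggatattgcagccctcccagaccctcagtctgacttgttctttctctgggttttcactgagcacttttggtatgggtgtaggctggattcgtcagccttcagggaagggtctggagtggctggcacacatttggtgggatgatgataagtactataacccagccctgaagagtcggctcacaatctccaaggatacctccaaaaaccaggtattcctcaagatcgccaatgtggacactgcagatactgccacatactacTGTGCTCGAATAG
Iglv1: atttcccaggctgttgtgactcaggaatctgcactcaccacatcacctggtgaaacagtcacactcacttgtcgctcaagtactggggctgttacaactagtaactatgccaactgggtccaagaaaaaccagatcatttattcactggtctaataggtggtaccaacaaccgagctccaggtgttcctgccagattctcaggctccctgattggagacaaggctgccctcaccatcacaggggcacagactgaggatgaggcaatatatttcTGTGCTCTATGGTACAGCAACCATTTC
Iglv2: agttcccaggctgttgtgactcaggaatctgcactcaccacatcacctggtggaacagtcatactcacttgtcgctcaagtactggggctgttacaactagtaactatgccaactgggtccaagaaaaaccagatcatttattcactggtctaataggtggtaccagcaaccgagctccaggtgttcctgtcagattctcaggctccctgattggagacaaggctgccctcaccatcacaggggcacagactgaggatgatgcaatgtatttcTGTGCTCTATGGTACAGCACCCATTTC
Ighv11-2 and Ighv8-8 lie on chromosome 12 within the heavy chain locus, Igkv14-126 and Igkv19-93 on chromosome 6 within the kappa locus, and Iglv1 and Iglv2 on chromosome 16 within the lambda locus. Iglv1 and Iglv2 were 96.87% identical, so their reads can be misassigned, while Iglv1 and Iglv3 were 60.11% identical. Among all 241 segments the median identity to the nearest relative was 94.15%, and 101 had a relative at 95% or more. Ighv11-2 and Igkv19-93 had no close relative, with 76.86% identity to Ighv4-1 and 79.25% to Igkv10-94, whereas Ighv8-8 was 96.09% identical to Ighv8-5. The annotation classes 191 of the segments as genes and 49 as pseudogenes.

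After filtering, 131 plasma cells were found among 15214 cells in the HFD library and 133 among 13890 cells in the ND library, with a median of 11388 RNA UMIs per cell in HFD and 11649 in ND. The deposited libraries held 117773643 (HFD) and 117999042 (ND) RNA UMIs. All 10 plasma cell markers examined beyond the rule were found in plasma cells of both libraries, and their summed level was 4357 CPM (UMIs per 1000000 UMIs of the class) in HFD and 4126 CPM in ND plasma cells, against 535 CPM in HFD and 515 CPM in ND B cells. There were 1538 B cells in the HFD library and 1212 in the ND library, with a median of 2386 RNA UMIs in HFD and 2438 in ND. Neutrophil markers, which plasma cells should lack, summed to 1129 CPM in HFD and 5349 CPM in ND plasma cells, and none of the 6 was at 0, the lowest being Ltf at 3.97 CPM in HFD and Retnlg at 159 CPM in ND. Their part in the results was not tested. Of the kept cells, 250 shared a barcode number between the libraries, but no plasma cell shared one with a plasma cell.

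Plasma cells held nearly all V segment transcripts, 92.8% of the V UMIs of the HFD library and 93.4% of those of the ND library. Their V UMIs came to 3925 Ighv, 11696 Igkv and 959 Iglv in HFD cells, against 4095 Ighv, 11044 Igkv and 1692 Iglv in ND cells. A plasma cell held a median of 13 Ighv UMIs in HFD and 15 in ND, and 63 Igkv UMIs in HFD and 65 in ND. V segments made up a median of 0.779% of a plasma cell's UMIs in HFD and 0.909% in ND. In HFD 130 of 131 plasma cells, and in ND 133 of 133, had at least 1 V UMI.

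Within a plasma cell, V transcripts came almost wholly from 1 heavy segment and 1 light segment. A cell was assigned a segment where the cell held 10 or more UMIs of the chain and the segment held at least 50% of them. The leading Ighv segment held a median of 100% of a cell's Ighv UMIs in both libraries, with a minimum of 70.3% in 79 assigned HFD cells and 78.6% in 84 assigned ND cells. Among light chains the leader held a median of 93% (interval 90 to 94.3%) in 129 HFD cells and 94.1% (92.6 to 95.6%) in 125 ND cells. With kappa counted alone, the leader held a median of 98.9% in each library, so the lower light chain value lay with lambda UMIs in kappa-led cells.

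Which heavy segments led was spread over many genes. In each library 36 Ighv segments led at least 1 plasma cell, 19 of them led exactly 1, and 19 led cells in both libraries, which is 52.8% of either list. Ighv11-2 led 12 of 79 HFD cells (15.2%, 8.1 to 25%) and 5 of 84 ND cells (5.95%, 1.96 to 13.3%). Ighv8-8 led 5 HFD cells (6.33%, 2.09 to 14.2%) and 10 ND cells (11.9%, 5.86 to 20.8%). Ighv1-80 led 3 HFD cells and 9 ND cells, Ighv1-9 led 8 HFD and 5 ND cells, and Ighv1-64 led 7 HFD and 4 ND cells. The intervals of both libraries overlap for Ighv11-2 and for Ighv8-8, so the libraries were not separable in these shares. Within each library the intervals of these segments overlap too, so their order was not separable at this number of cells. By family, Ighv1, the largest with 60 members, led 43 HFD cells (54.4%) and 38 ND cells (45.2%).

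**Figure D1:**
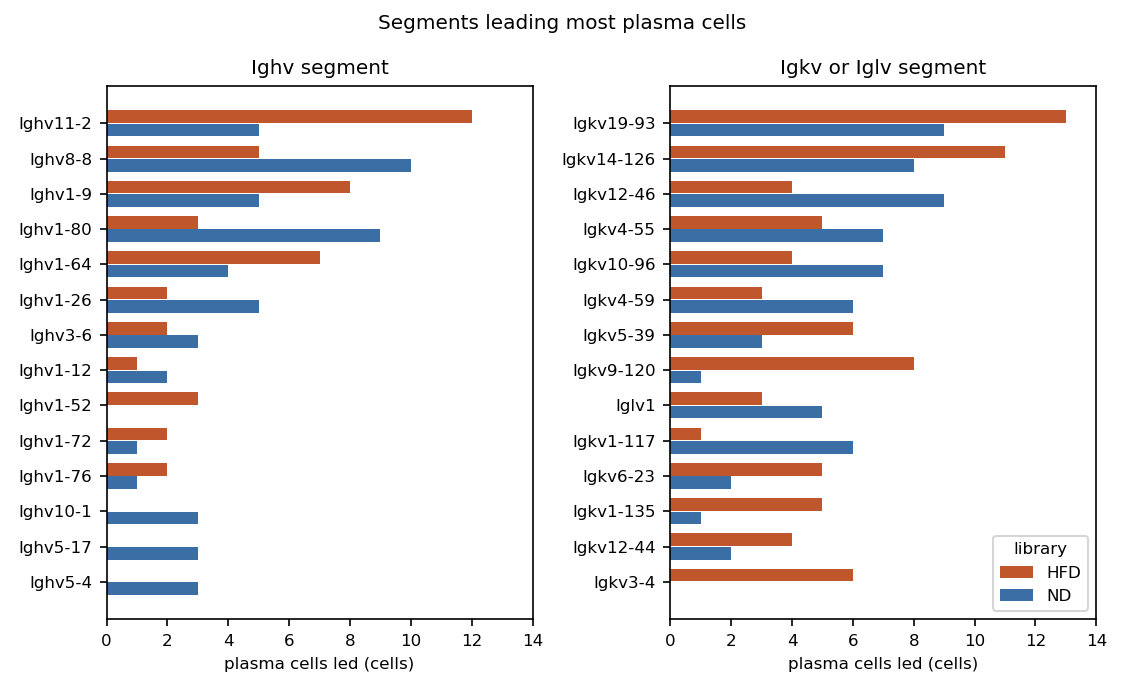
Horizontal bars give the number of plasma cells led by each of the 14 heavy (left) and light chain (right) segments that led the most cells over both libraries, HFD above ND. Ighv11-2 reached 12 HFD and 5 ND cells, and Igkv19-93 reached 13 HFD and 9 ND cells.

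The light chain leaders were as varied. In HFD 45 segments led 129 cells and in ND 48 segments led 125 cells, with 31 shared, which is 68.9% of the HFD list and 64.6% of the ND list. Igkv19-93 led 13 HFD cells (10.1%, 5.48 to 16.6%) and 9 ND cells (7.2%, 3.35 to 13.2%). Igkv14-126 led 11 HFD and 8 ND cells, Igkv12-46 led 4 HFD and 9 ND cells, Igkv4-55 led 5 HFD and 7 ND cells, and Igkv10-96 led 4 HFD and 7 ND cells. Igkv9-120 led 8 HFD cells and 1 ND cell, and Igkv3-4 led 6 HFD cells and none in ND, a count of 0 that allows a share of up to 2.4% of 125 cells. The family with most members, Igkv4 with 33, led 19 HFD cells (14.7%, 9.11 to 22%) and 33 ND cells (26.4%, 18.9 to 35%). The Igkv8 family led 2 HFD cells (1.55%, 0.188 to 5.49%) and 13 ND cells (10.4%, 5.65 to 17.1%). These intervals do not overlap, in a comparison chosen after the values of all families were seen, and those of every other family do. Igkv8-24 led 6 of the 13 ND cells, and 4 ND cells paired it with Ighv1-26 at 3 or more Ighv UMIs. The intervals take cells as independent draws, which cells of shared descent are not.

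The minimum of 10 UMIs set which heavy segment came out on top in ND cells. With heavy chains assigned at 3 or more Ighv UMIs, 115 HFD cells and 125 ND cells had a leader, from 44 segments in HFD and 45 in ND. Ighv1-26 then led 7 HFD cells and 18 ND cells, against 2 HFD and 5 ND cells at 10 UMIs, while Ighv11-2 led 14 HFD and 8 ND cells. Ighv1-26 is 96.87% identical to Ighv1-18, so reads of a relative can be misassigned to it. The added Ighv1-26 cells carried little heavy V RNA. Those with an IgM constant region numbered 4 in HFD and 12 in ND. They held a median of 6 Ighv1-26 UMIs in HFD and 4.5 in ND. Their median of heavy constant UMIs was 1011 in HFD and 837 in ND. Among them the pair Ighv1-26/Igkv12-46 appeared in 2 HFD cells and 5 ND cells, all IgM.

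Ighv11-2 was joined to few light chains. Ighv11-2 with Igkv14-126 is known as the canonical receptor pair of B-1a cells that bind phosphatidylcholine, an innate-like specificity. The pair led 8 of 79 HFD cells with both chains assigned (10.1%, 4.47 to 19%) and 5 of 82 ND cells (6.1%, 2.01 to 13.7%), and all 13 cells were IgM. In these cells Ighv11-2 held 10 to 33 UMIs and Igkv14-126 held 53 to 134 UMIs in HFD, against 10 to 25 and 54 to 244 UMIs in ND. The 3 HFD and 3 ND cells that Igkv14-126 led without an assigned heavy chain also had Ighv11-2 as their top Ighv segment, at 1 to 6 UMIs. Thus 11 of 11 HFD cells and 8 of 8 ND cells led by Igkv14-126 had Ighv11-2 on top, and all were IgM.

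In 3 HFD cells Ighv11-2 was paired with Igkv19-93 instead, and all of these were IgA. They held 32, 48 and 50 Ighv11-2 UMIs and 229, 211 and 169 Igkv19-93 UMIs. No ND cell had this pair, and a count of 0 allows up to 3.66% of its 82 cells. The junction sequences are not in the tables, so whether cells with the same segment pair descend from 1 cell cannot be told.

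Across the repertoire, 58 pairs led 79 HFD cells and 66 pairs led 82 ND cells. Pairs found in 2 or more cells of a library numbered 13 in HFD, with 34 cells (43%, 31.9 to 54.7%), and 11 in ND, with 27 cells (32.9%, 22.9 to 44.2%). Of the 117 pairs in all, 7 led cells of both libraries, and they held 17 HFD cells (21.5%) and 16 ND cells (19.5%). Ighv1-9/Igkv19-93 led 2 HFD and 3 ND cells, and Ighv8-8/Igkv4-68 led 2 HFD and 3 ND cells, and all 10 were IgM. Ighv1-9/Igkv9-120 led 3 HFD cells, all IgM, and no ND cell.

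**Figure D2:**
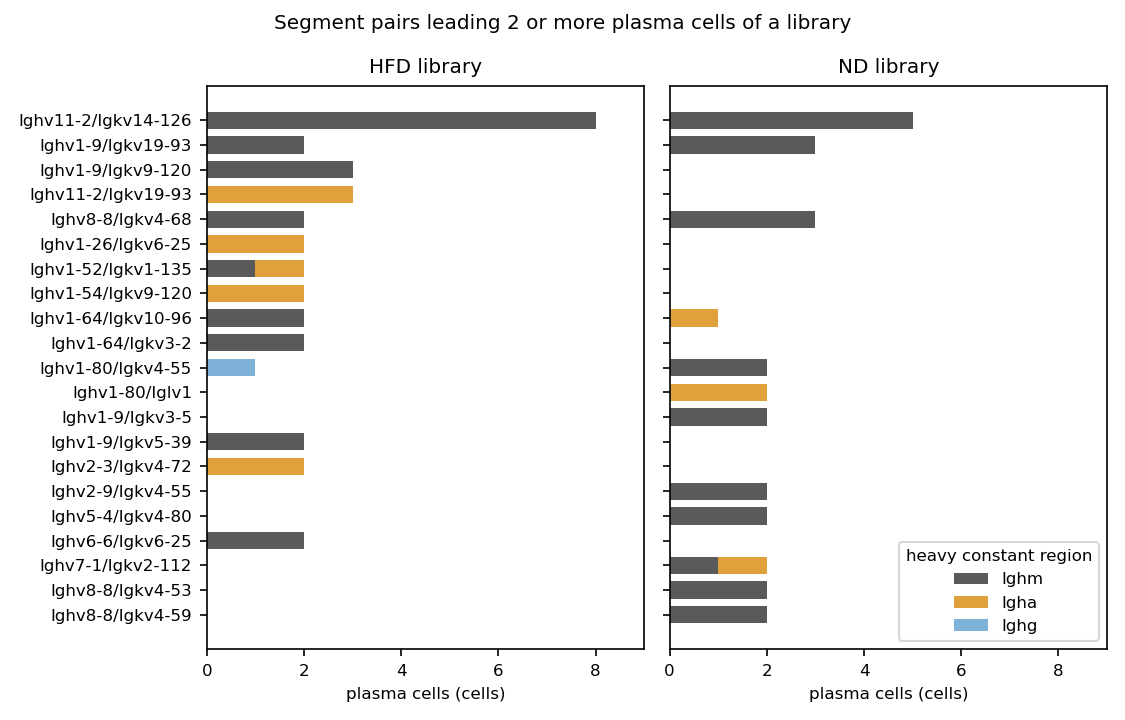
Bars count the plasma cells with each segment pair that led 2 or more cells of a library, in the HFD (left) and ND (right) library, coloured by the heavy constant region with most UMIs in the cell. Ighv11-2/Igkv14-126 stands on top with 8 HFD and 5 ND cells, all Ighm.

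The constant region was uniform for some segments and mixed for others. By the constant gene with most UMIs, 89 HFD and 91 ND plasma cells were Ighm (IgM), and 36 HFD and 34 ND cells were Igha (IgA). All 15 cells that Ighv8-8 led, 5 in HFD and 10 in ND, were IgM, and so were all 13 led by Igkv12-46, 4 in HFD and 9 in ND. Ighv10-1 led 3 ND cells, all IgA. By contrast Ighv1-64 led 4 IgM and 3 IgA cells in HFD and 3 IgA and 1 Ighg2b cell in ND, and Igkv10-96 led 2 IgM and 2 IgA cells in HFD and 4 IgM and 3 IgA cells in ND. These segments were picked after their values were seen, and most plasma cells were IgM (67.9% in HFD and 68.4% in ND). IgA cells held more heavy V RNA, with a median of 50.5 Ighv UMIs in HFD and 46.5 in ND, against 7 in HFD and 10 in ND IgM cells. A heavy segment was therefore assigned in 91.7% of HFD and 91.2% of ND IgA cells but in 46.1% of HFD and 50.5% of ND IgM cells, so the heavy leader counts above weigh IgA cells more. IgA cells also held more heavy constant RNA, a median of 2618 UMIs in HFD and 2358 in ND, against 824 and 937 in IgM cells. Per 1000 heavy constant UMIs, Ighv UMIs came to 31.6 in HFD and 25.8 in ND IgA cells. In IgM cells they came to 14.5 in HFD and 20.1 in ND.

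Lambda segments led few cells. An Iglv segment led 5 of 129 HFD cells (3.88%, 1.27 to 8.81%) and 6 of 125 ND cells (4.8%, 1.78 to 10.2%). Thinned to 2000 UMIs per cell, the shares were 0% of 87 HFD cells and 6.52% of 92 ND cells (2.43 to 13.7%). By the constant region, cells with more Iglc than Igkc UMIs numbered 3 of 131 in HFD (2.29%, 0.475 to 6.55%) and 7 of 133 in ND (5.26%, 2.14 to 10.5%). In the 3 HFD cells the top Iglv segment was Iglv2 with 36 and 24 UMIs or Iglv1 with 10 UMIs, and all 3 were IgM. In the ND cells Iglv1 was on top in 5, with 62 to 215 UMIs, and 4 of these were IgA. Both remaining HFD cells led by Iglv1 had more kappa constant RNA, with 2311 Igkc against 43 Iglc UMIs in the first and 2667 Igkc against 852 Iglc UMIs in the second. Summed over plasma cells, Iglv1 had 756 UMIs in HFD and 1444 in ND, a log2 ratio of -0.87 (-0.99 to -0.74). The 5 lambda-led HFD cells held 57 of them and the 6 lambda-led ND cells held 618. Kappa-led cells held 699 in HFD and 824 in ND. Of the lambda constant genes, Iglc1 had 2728 UMIs in HFD and 8967 in ND. Iglc2 had 7056 in HFD and 7836 in ND, and Iglc3 had 2492 in HFD and 1866 in ND.

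Iglv1 was also the segment found most widely at low level. Among kappa-led plasma cells, 88 of 124 in HFD (71%, 62.1 to 78.8%) and 81 of 119 in ND (68.1%, 58.9 to 76.3%) had at least 1 Iglv1 UMI, with a median of 2 in both libraries and a maximum of 58 in HFD and 126 in ND. In kappa-led IgA cells the median was 6.5 in HFD and 8 in ND, against 1 in HFD and 1 in ND IgM cells. Iglv3 was found in 52 of those 124 HFD cells and 56 of 119 ND cells, but Iglv2 in 4 HFD and 5 ND cells. An Iglv UMI was found in 0 of 596 HFD T cells, which allows a share of up to 0.503%, and in 1 of 571 ND T cells, at a median depth of 3615 UMIs in HFD and 3652 in ND T cells, while plasma cells were deeper. The origin of these UMIs was not tested.

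A second segment at 10% or more of a cell's UMIs was rare among heavy chains and more frequent among light chains. It was seen in 3 of 79 HFD and 4 of 84 ND cells for Ighv. In 2 of these HFD cells the second was no relative of the leader, Ighv3-5 with 18 UMIs beside Ighv1-9 with 45 (62.68% identical) and Ighv3-6 with 3 beside Ighv1-52 with 17 (60.57% identical). In the third HFD cell and in all 4 ND cells it was a relative, such as Ighv7-4 beside Ighv7-3 (93.91% identical) in 2 cells, where reads of 1 transcript can be split. For light chains it was seen in 38 of 129 HFD cells (29.5%, 21.8 to 38.1%) and 24 of 125 ND cells (19.2%, 12.7 to 27.2%), and in 26 of the HFD and 18 of the ND cells the second was Iglv1 in a kappa-led cell. Kappa beside kappa was seen in 9 HFD cells and 2 ND cells. In 4 of the 9 HFD cells Igkv13-84 came second to Igkv9-120, at 5 to 10 UMIs against 24 to 47, though the sequences are 71.18% identical. The HFD cells of the pair Ighv1-9/Igkv9-120 held 38, 44 and 47 Igkv9-120 UMIs, the same counts as 3 of these 4 cells.

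Some cells held 2 light segments at similar level, among them 3 whose top Ighv segment was Ighv11-2. An HFD cell had 87 Igkv5-45 and 65 Igkv14-126 UMIs, with 16 Ighv11-2 UMIs. An ND cell had 79 Igkv14-126 and 62 Igkv9-120 UMIs, with 10 Ighv11-2 UMIs. Another ND cell had 74 Igkv14-126 and 56 Igkv8-27 UMIs, with 3 Ighv11-2 UMIs. Cells with another top Ighv segment did so too, as an HFD cell with 25 Igkv11-125 and 22 Igkv6-15 UMIs, an HFD cell with 31 Iglv1 and 28 Igkv13-85 UMIs, and an ND cell with 179 Igkv8-28 and 126 Iglv1 UMIs. All 3 Ighv11-2 cells were IgM. They held 9505, 11004 and 13637 UMIs in all, against class medians of 11388 in HFD and 11649 in ND. Scrublet called no plasma cell a doublet, but it can miss a doublet of 2 plasma cells. Whether cells with 2 light segments are doublets was not tested.

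A segment's total often rested on 1 cell. Over segments with at least 20 UMIs, the top cell held a median of 62.9% of the segment's plasma cell UMIs in HFD (54.3 to 86.4%, 80 segments) and 68.6% in ND (56.1 to 88.1%, 79 segments). The top cell held at least 50% in 57 HFD and 55 ND segments, and at least 90% in 28 HFD and 30 ND segments. Thinned to 2000 UMIs per cell, the medians were 38.7% in HFD and 41.9% in ND, over the 34 HFD and 39 ND segments that still reached 20 UMIs. Ighv2-9-1 had 360 UMIs in HFD plasma cells, of which 311 were in 1 cell, and none in ND. Igkv8-24 rested less on 1 cell, with 3 UMIs in HFD and 474 in ND, of which 193 were in the top of the 6 ND cells it led. Igkv1-110 had 357 UMIs in HFD, with 215 in its top cell, and 221 in ND, with 218 in its top cell.

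Igkv5-39, the segment with most UMIs in HFD plasma cells, had 2228 UMIs in 7 HFD cells and 900 UMIs in 3 ND cells. The 6 HFD cells it led held 242 to 674 UMIs each and the 3 ND cells held 159 to 430, far above the median of 63 HFD and 65 ND Igkv UMIs per plasma cell. Segments shared by many cells were spread instead. Ighv11-2 had 308 UMIs in 15 HFD cells with 50 in the top cell (16.2%), and 106 UMIs in 8 ND cells with 25 in the top cell (23.6%). Igkv14-126 had 1065 UMIs in 13 HFD cells with 134 in the top cell (12.6%), and 864 UMIs in 8 ND cells with 244 in the top cell (28.2%). The lowest top-cell shares were those of Iglv3, at 5.84% in HFD and 9.52% in ND, and Iglv1, at 7.67% in HFD and 14.9% in ND.

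**Figure D3:**
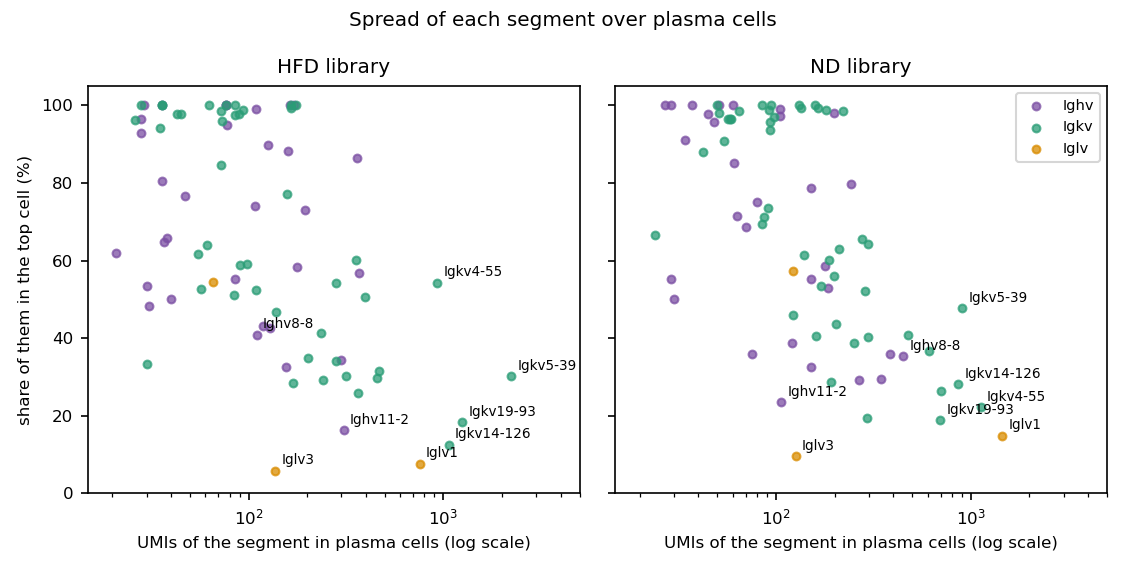
Each point is a V segment with at least 20 UMIs in plasma cells of the HFD (left) or ND (right) library, placed by its UMIs (log scale) and by the share of them in its top cell (percent), coloured by locus. Iglv1 and Iglv3 lie lowest, and 28 HFD and 30 ND segments lie at 90% or above.

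Summed over plasma cells, most segments differed between the libraries in both directions. Levels are UMIs scaled to the class total, and a segment was called past 1.5-fold with an interval that excludes 0. Of the 241 segments, 197 had a UMI in plasma cells and 115 reached 20 UMIs over both libraries. Of these, 45 were higher and 44 lower in HFD, while among all 7970 genes with 20 UMIs 2.81% were higher and 6.14% lower (8.95% in either direction). The median log2 ratio of the segments was 0.11, against -0.06 over all genes, and the median size of the ratio was 3.25, against 0.27 over all genes. Of the 115 segments, 30 had no UMI in 1 of the libraries. With each segment's top cell left out in each library, 61 segments still reached 20 UMIs, of which 27 were higher and 32 were lower. A segment can reach that minimum through the library where it is high alone. No share over all genes was computed this way, so this count is no check on the calls. Intervals that take UMIs as independent are too narrow for segments held by few cells, so these calls describe these libraries only.

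The extreme ratios belonged to segments with almost no UMI in the other library. Igkv6-25 had 454 UMIs in 7 HFD cells and 1 UMI in ND, a log2 ratio of 8.89 (6.41 to 14.2). Igkv9-123 had 175 UMIs in HFD, all in 1 cell, and 1 UMI in ND, a log2 ratio of 7.52 (5.02 to 12.8). Ighv2-3 had 370 UMIs in 2 HFD cells, both IgA and both with Igkv4-72, and none in ND. Igkv14-111 had 317 UMIs in 5 HFD cells and 3 UMIs in ND. At the other end, Igkv4-53 had 1 UMI in HFD and 298 in 5 ND cells, a log2 ratio of -8.15 (-13.5 to -5.66). Igkv4-80 had 1 UMI in HFD and 170 in 2 ND cells, Igkv3-5 had 1 in HFD and 140 in 2 ND cells, and Ighv10-1 had none in HFD and 385 in 3 ND cells. Against a floor of 3 UMIs the log2 ratio was at least 7.01 for Ighv2-3 and 6.97 for Ighv2-9-1, and at most -6.94 for Ighv10-1.

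**Figure D4:**
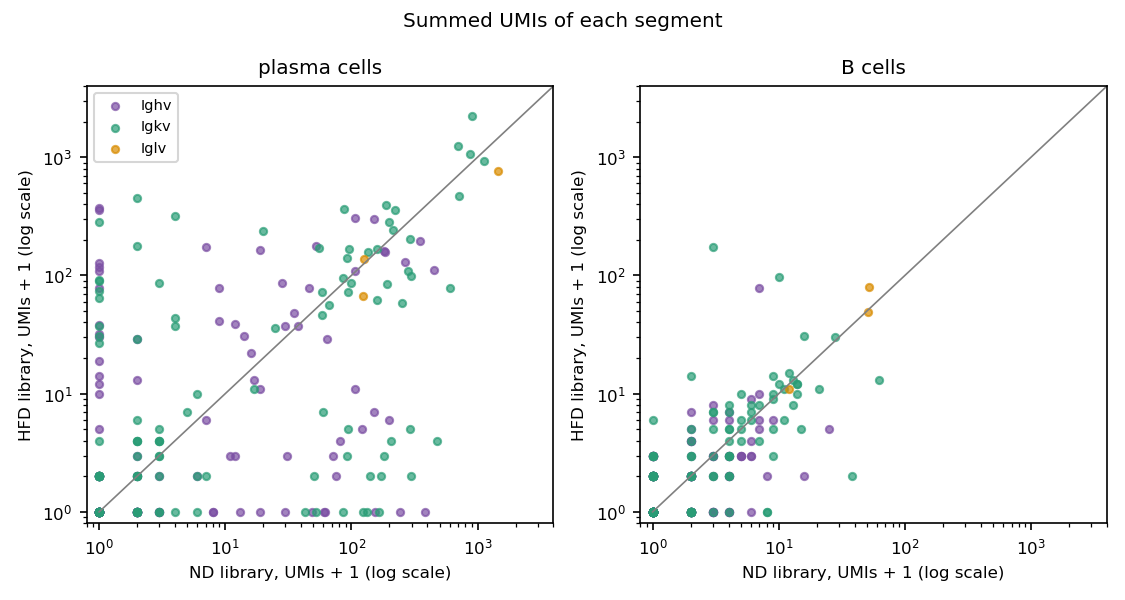
Each point is a V segment, placed by its summed UMIs plus 1 in the HFD (vertical) and ND (horizontal) library on log scales, in plasma cells (left) and in B cells (right), with the line of equal UMIs. In plasma cells segments lie along both axes as well as near the line, as Igkv6-25 with 454 HFD and 1 ND UMIs, and in B cells few segments exceed 20 UMIs.

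Of 15 plasma cell genes examined, Jchain and Mzb1 chose the cells, and none of the others was called. Their log2 ratios ran from -0.44 for Cd28, a costimulatory receptor found in 40.5% of HFD and 48.1% of ND plasma cells, to 0.35 for Fkbp11, found in 44.3% of HFD and 33.8% of ND plasma cells. Xbp1, a transcription factor of secretory cells, had a log2 ratio of 0.17. Of 5 heavy constant genes tested, 1 was higher in HFD, Ighg3 with 4923 UMIs in HFD and 148 in ND. Both lower ones were Ighg2b, with 5753 UMIs in HFD and 15150 in ND, and Ighg2c, with 2201 UMIs in HFD and 5629 in ND. Few cells had an IgG gene on top, 3 HFD and 0 ND cells for Ighg3, 2 HFD and 5 ND cells for Ighg2b, and 1 HFD and 3 ND cells for Ighg2c. Of 4 light constant genes only Iglc1 was called, and it was lower in HFD.

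B cells held V transcripts at far lower level. At least 1 V UMI was found in 490 of 1538 HFD B cells (31.9%, 29.5 to 34.3%) and 451 of 1212 ND B cells (37.2%, 34.5 to 40%), and 362 of the HFD and 325 of the ND cells had exactly 1. Thinned to 1000 UMIs per cell, the shares were 13.6% of 1536 HFD cells and 17.3% of 1210 ND cells. T cells, which make no antibody, had a V UMI in 1.17% of HFD cells (0.473 to 2.4%) and 0.701% of ND cells (0.191 to 1.79%), at a greater median depth of 3615 UMIs in HFD and 3652 in ND. Neutrophil markers summed to 2993 CPM in HFD and 1462 CPM in ND B cells, with 6 of 6 detected, and erythroid markers to 1647 CPM in HFD and 469 CPM in ND, with 3 of 3 detected, and their part in the lower HFD share was not tested.

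Light chain segments were found in a smaller share of early B cells than of Ighd-positive ones, with intervals apart only for Igkv in HFD. Cells with surrogate light chain transcripts (at least 3 Igll1 plus Vpreb1 UMIs), which pair a new heavy chain before a light chain exists, had Ighv UMIs in 12.5% of 152 HFD cells (7.7 to 18.8%) and 14.4% of 97 ND cells (8.12 to 23%). Igkv UMIs were found in 6.58% of these HFD cells (3.2 to 11.8%) and 12.4% of these ND cells (6.56 to 20.6%), and Iglv UMIs in 1 HFD cell and 0 ND cells. Ighd-positive cells, which carry the IgD constant region of mature B cells, had Ighv UMIs in 11.2% of 322 HFD cells (7.95 to 15.1%) and 15.3% of 275 ND cells (11.2 to 20.1%). Igkv UMIs were found in 21.4% of these HFD cells (17.1 to 26.3%) and 24.4% of these ND cells (19.4 to 29.9%), and Iglv UMIs in 5.59% of HFD and 4.36% of ND cells. They were shallower than the surrogate light chain cells, with a median of 2203 UMIs in HFD and 2298 in ND against 6393 in HFD and 4947 in ND.

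**Figure D5:**
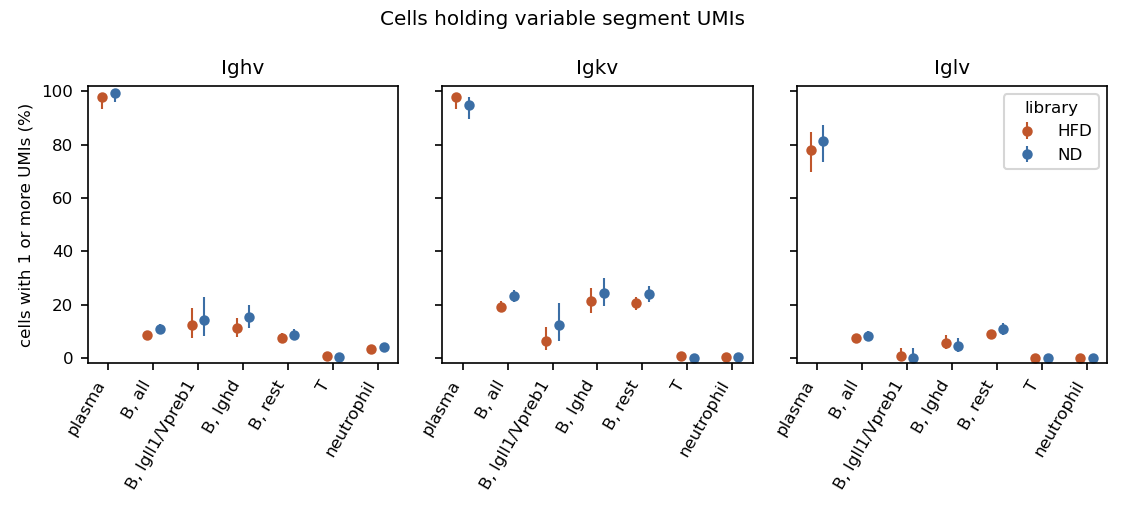
Points give the percent of cells with at least 1 UMI of Ighv (left), Igkv (middle) or Iglv (right) segments in each cell class, HFD left of ND, with exact 95% binomial intervals for counting error. Plasma cells lie above 75% at every locus and T cells and neutrophils lie below 5%.

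Few B cells held enough V UMIs to name a segment. At 3 or more UMIs of a chain, 3 HFD and 7 ND cells had a heavy leader and 22 HFD and 27 ND cells a light leader. Igkv5-39 led 5 of the 22 HFD cells and 4 of the 27 ND cells, and Iglv1 led 4 HFD cells and no ND cell. Ighv1-38 led 1 cell in each library, and every other heavy leader led 1 cell. In B cells with 2 or more light chain UMIs, these fell on 1 segment in 46 of 94 HFD cells (48.9%, 38.5 to 59.5%) and 28 of 83 ND cells (33.7%, 23.7 to 44.9%). With 2 or more Ighv UMIs they fell on 1 segment in 14 of 16 HFD cells and 24 of 32 ND cells.

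A few B cells held many V UMIs. In HFD 2 B cells, and in ND 3, held 10 or more V UMIs. The HFD cell with most had 243 V UMIs, 24.3% of the class total, with 171 Igkv8-27 and 71 Ighv8-8 UMIs, and the other had 103, of which 95 were Igkv4-55. The ND cells had 64 (8.38% of the class total), 53 and 13 V UMIs, led by Igkv9-124 with 44, Igkv3-12 with 37 and Igkv4-55 with 8. All 5 cells had 124 to 646 Jchain UMIs but only 1 or 2 Mzb1 UMIs, just outside the plasma cell rule. Of 20 segments tested in B cells, 3 were higher in HFD (Igkv8-27, Ighv8-8 and Igkv4-55) and 4 were lower (Igkv3-12, Ighv5-4, Igkv9-124 and Igkv1-110), against 2.48% higher and 2.47% lower of all 11048 genes (4.95% in either direction). Without these 5 cells, a choice made after seeing the data, 15 segments were tested, 0 were higher and 1 was lower.

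Among the remaining B cells the V UMIs were spread over many segments, mostly as single UMIs. A single UMI made up 91.2% of Ighv and 87.1% of Igkv detections (a segment in a cell) in HFD. In ND it made up 83.2% of Ighv and 87.2% of Igkv detections. In 1536 HFD cells 149 Ighv UMIs fell on 67 segments, and in 1209 ND cells 162 UMIs fell on 65 segments, and no segment held more than 6.04% in HFD or 4.94% in ND. Of Igkv, 372 HFD UMIs fell on 75 segments, led by Igkv5-39 with 30 UMIs in 16 cells and Igkv19-93 with 29, and 361 ND UMIs fell on 71 segments, led by Igkv19-93 with 27 UMIs in 21 cells and Igkv1-110 with 20. Ighv11-2, which led 12 HFD and 5 ND plasma cells, had 1 UMI in HFD B cells and 0 in ND B cells. Iglv1 held 77 UMIs in HFD and 51 in ND, and Iglv3 held 48 in HFD and 49 in ND.

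The share of Igkv UMIs in B cells differed between stretches of the kappa locus, but it did not follow the order of distance. The 41 of 122 Igkv segments farthest from the joining segments, by gene order, held 51.6% of these Igkv UMIs in HFD B cells (46.4 to 56.8%) and 56% in ND B cells (50.7 to 61.1%), the 41 in the middle held 15.1% in HFD and 15.5% in ND, and the nearest 40 held 33.3% in HFD and 28.5% in ND. Among kappa-led plasma cells the farthest segments led 58 of 124 in HFD (46.8%) and 45 of 119 in ND (37.8%), and the middle ones 31 in HFD (25%) and 46 in ND (38.7%). The stretches count all segments, among them 26 Igkv pseudogenes. The middle stretch holds most of the 33 segments of the Igkv4 family, many of them close relatives of each other. The part of this family and of the pseudogenes in the shares was not tested. Ighv use in B cells had no such gap, with 27.5 to 38.9% of HFD and 32.1 to 34.6% of ND Ighv UMIs in each of the 3 stretches. Among plasma cells with a heavy leader, the farthest Ighv segments led 41.8% in HFD and 36.9% in ND. The middle ones led 25.3% in HFD and 28.6% in ND, and the nearest 32.9% in HFD and 34.5% in ND.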

How the data were processed

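The authors deposited counts, that is molecules (UMIs) per gene and cell after error correction, and the file headers name version 1.9.1 of the BD WTA Rhapsody Analysis Pipeline. The headers name a custom reference without its build, annotation or strand setting, so coordinates are left out, and reads of near-identical or overlapping segments cannot be told apart. The members, gene lists and alternatives were chosen with earlier results of these data known.

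Segments were matched by symbol, and a symbol absent from 1 table was taken as 0. Cells under 200 genes or over 25% mitochondrial UMIs were removed, and Scrublet (scanpy 1.11.5, expected rate 5%) doublets were dropped, 436 in HFD (2.79%) and 412 in ND (2.88%). B cells were split by 3 or more Igll1 plus Vpreb1 UMIs and by 3 or more Ighd UMIs. T cells (3 or more Cd3 UMIs) and neutrophils (S100a8 plus S100a9 at least 5% of UMIs), both without Cd79a, served as background. Shares carry Clopper-Pearson intervals, and ratios of HFD over ND carry conditional binomial ones, with a floor of 3 UMIs for a count of 0. The limit printed beside a share of 0 is 3 counts of the total. UMIs within a cell are not independent, so the ratio intervals are too narrow. Identity is from global alignment in Biopython 1.88, and gene order is from RefSeq (GRCm38.p6).

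Segments named per class were the up to 5 that led most cells per locus, the 5 highest and 5 lowest ratios, and the 5 with the largest top-cell share among the 20 with most UMIs. Further segments were named after their values were seen. Analyses used Python 3.11.15, numpy 2.4.6, scipy 1.17.1, pandas 2.3.3 and matplotlib 3.10.9.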

Additional observations from a re-analysis of the deposited data

How the results depend on the processing

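No paired analysis was possible because there was 1 library per diet. Over 28 results, 152 alternative values were computed, and 125 moved by no more than their own interval or, for counts, by no more than 1.5 times. Some of these intervals are wide: the median top-cell share of segments in B cells was 13.3% in HFD and 11.1% in ND, but 67.6% in ND with Cd79a at 1 or more, 41.6% in ND under stricter cell filters and 5.41% in HFD when thinned. Leaving out each segment's top cell left 27 segments higher and 32 lower of 61 in plasma cells, and 0 higher and 1 lower in B cells. With Cd79a at 5 or more UMIs 1 segment was higher and 2 were lower of 14 in B cells. With Cd79a at 1 or more 3 were higher and 7 lower of 21. With no count minimum 4 were higher and 10 lower of 180. Shares over all genes were not computed at these settings. Without B cells of 10 or more V UMIs, an alternative chosen after seeing the data, 0 were higher and 1 was lower of 15. Thinning each plasma cell to 2000 UMIs left 16 leading heavy segments in HFD and 18 in ND, a median top-cell share of 38.7% in HFD and 41.9% in ND, and a lambda-led share of 0% in HFD and 6.52% in ND. In B cells the lambda-led share in HFD was 0% where the leader had to hold 80%. The share of B cells with a V UMI was 28.4% in HFD and 34.5% in ND with Cd79a at 1 or more (28.1% in HFD and 34.2% in ND in cells of neither stage). Thinned to 1000 UMIs it was 13.6% in HFD and 17.3% in ND, with 3.29% in HFD and 3.09% in ND surrogate light chain cells, 15.3% in HFD and 21.2% in ND Ighd-positive cells, and 13.8% in HFD and 19.4% in ND cells of neither stage. The number of UMIs per cell limits which cells can be assigned, and the number of plasma cells limits any comparison of shares. Assigning heavy chains at 3 UMIs, also chosen after seeing the data, gave 44 leading segments in HFD and 45 in ND.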

Other observations

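V segment UMIs outside plasma and B cells were few, 292 in 13545 HFD cells and 418 in 12545 ND cells. There, 1 HFD cell with 28 V UMIs and 6 ND cells with 184 V UMIs between them held 10 or more, and 1 of the HFD and 5 of the ND cells had 10 or more Jchain UMIs. Among neutrophils the UMIs fell on the heavy chain locus, with 106 Ighv, 13 Igkv and 0 Iglv UMIs in 2835 HFD cells and 85 Ighv, 6 Igkv and 0 Iglv UMIs in 1901 ND cells. Ighv1-41, annotated as a pseudogene and named after its values were seen, held 54.7% of these Ighv UMIs in HFD and 63.5% in ND. It was found in 57 HFD neutrophils (2.01%, 1.53 to 2.6%) and 53 ND neutrophils (2.79%, 2.1 to 3.63%), at no more than 2 UMIs in a cell, and in 0 HFD and 0 ND plasma cells, which at 3 counts allows up to 2.29% of HFD and 2.26% of ND plasma cells. In B cells it was found in 4 HFD cells and 1 ND cell. The source of these UMIs was not tested.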
